A study of Mus musculus with 3 samples.

Results

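The genes described here are the WNT ligands together with the proteins that release, bind, block and transduce them. They were selected by symbol from the 23421 genes of the expression table, irrespective of their values, and comprise 64 genes. All symbols that name a numbered Wnt ligand (19) or Frizzled receptor (10) were taken, with 3 genes for ligand processing and release, 2 co-receptors, 9 secreted inhibitors, 7 genes of the R-spondin arm, 9 cytoplasmic transducers and 5 nuclear effectors. RNA-seq was carried out on mouse embryos at embryonic day (E)6.5 on the 129/SvEv background, all obtained by mating tw18/+ mice. One library each came from wild type embryos, from tw18/+ embryos, which carry 1 copy of the *t* haplotype tw18 beside a normal Chr 17, and from tw18/tw18 embryos, which lack the deleted segment of Chr 17 on both homologs. The study set out to characterize the gastrulation failure of the homozygotes, which it traces to *Ppp2r1a*, a gene of this segment that encodes the scaffold subunit Aα of the phosphatase PP2A. The labels name the tissue epiblast, whereas the methods describe the embryo proper, epiblast plus the visceral endoderm around it. The number of embryos per library is not given, and with 1 library per genotype no difference has a replicate check and no test was possible.

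In the canonical WNT pathway, secreted ligands bind Frizzled receptors and LRP co-receptors, which blocks the AXIN/APC/GSK3 complex that otherwise marks β-catenin for degradation. Stabilized β-catenin enters the nucleus and acts with TCF/LEF factors on target genes, several of which encode feedback inhibitors of the pathway. In the gastrulating mouse embryo, *Wnt3* is required in the posterior epiblast for the primitive streak and mesoderm to form, while the anterior visceral endoderm secretes antagonists that keep the anterior side free of the signal.

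Values are FPKM, fragments per gene scaled to the length of the transcript and the size of the library. They are levels, and each can depend on what the other genes of its library take up. A gene was compared between a pair of libraries when its mean FPKM over the 3 libraries was at least 1 and it was not listed at 0 in either library of the pair. It was called higher or lower at a log2 ratio of FPKM of at least 1 in either direction. The spacing of the lowest FPKM values put 1 fragment on a 1 kb transcript at 0.0727 FPKM in wild type, 0.0519 in tw18/+ and 0.0522 in tw18/tw18, so that the wild type library was the shallowest. The 95% intervals given below follow from the fragment numbers estimated in this way. They cover counting error only, not the spread between embryos. Unless another pair is named, a ratio in parentheses is the log2 ratio of tw18/tw18 against wild type, followed by its interval, and levels are listed in the order wild type, tw18/+ and tw18/tw18. *Ppp2r1a*, the check of the labels, had 146 FPKM in wild type, 81.7 in tw18/+ and 12.8 in tw18/tw18. The order is that of its copy number, but the tw18/tw18 value was 11.5-fold lower than that of wild type and not 0, about 589 fragments of a gene that homozygous cells lack. The source of these fragments was not tested.

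Of the 64 genes, 43 passed the filter on low values and 21 did not. In tw18/tw18 against wild type, 11 of the 43 were higher and 5 were lower. This is 25.6% and 11.6% of the genes compared, beside 12.0% and 5.60% of the 12075 genes compared in the whole table (37.2% beside 17.6% in either direction). The median log2 ratio of the 43 was 0.05, and that of all genes compared was -0.03. Of the 11 higher genes, 4 (*Wnt6*, *Wnt7b*, *Wnt10a* and *Notum*) were under 1 FPKM in wild type, and 3 of these (*Wnt7b*, *Wnt10a* and *Notum*) passed the filter only through their tw18/tw18 value, so that they could only have come out higher. The counting interval excluded a ratio of no difference for 16 of the 16 called genes, and it lay wholly past the threshold for 13 of them. It also excluded no difference for 39 of all 43, called or not, whereas the spread between embryos is unknown.

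In tw18/+ against wild type, 5 of the 43 genes were higher (*Wnt6*, *Wnt7b*, *Wnt10a*, *Notum* and *Rspo3*) and 1 was lower (*Frzb*). These are 11.6% and 2.33% of the members, beside 3.43% and 3.71% of all genes compared (14.0% beside 7.13% in either direction). Of the 5 higher genes, *Wnt7b*, *Wnt10a* and *Notum* passed the filter only through their tw18/tw18 value, from a library outside this comparison. For none of the 6 did the counting interval lie wholly past the threshold, and with a pseudocount of 1 none of them was called, beside 1.22% and 1.64% of all genes. Against tw18/+ as the reference, 9 genes (20.9%) were higher in tw18/tw18 and 2 (*Axin2* and *Sp5*) were lower. Of the 9, *Wnt7b*, *Wnt10a* and *Notum* passed the filter only through their tw18/tw18 value. Over all genes, 12.2% and 4.75% were called in these directions and 16.9% in either. The share of lower members, 4.65%, was thus close to that of all genes. The comparisons share libraries, the wild type one or the tw18/tw18 one, and their values are given side by side without further comparison.

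**Figure D1:**
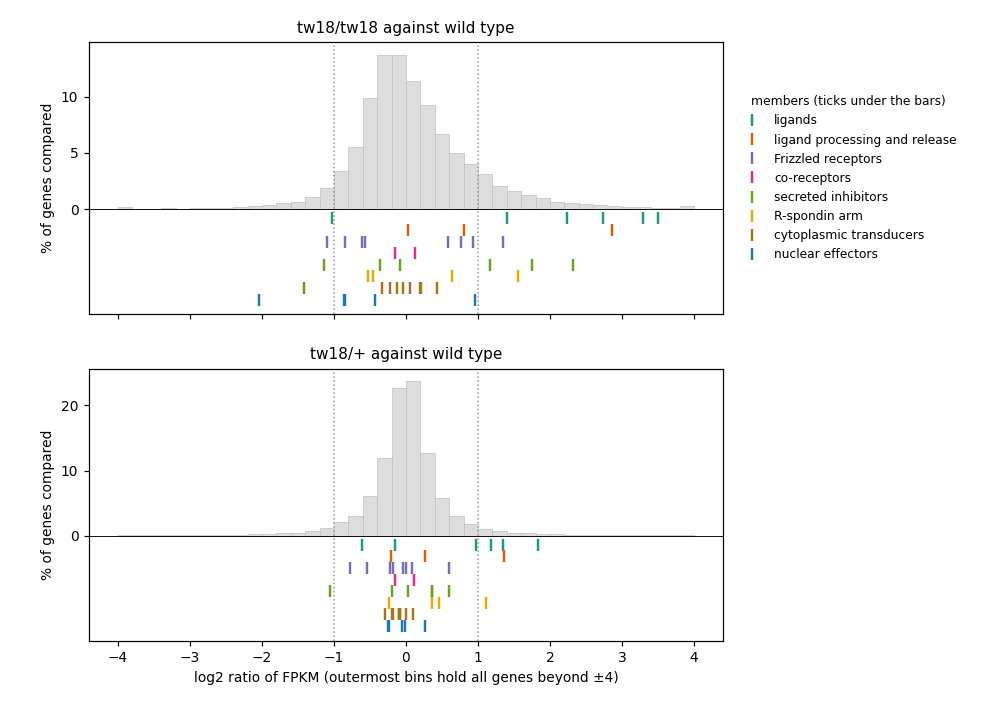
Distribution of the log2 ratio of FPKM over all genes compared (bars), with the genes of the WNT pathway as ticks under the bars, in tw18/tw18 against wild type and in tw18/+ against wild type. Dotted lines mark log2 ratios of -1 and 1. In tw18/tw18, 11 members lie past the upper line and 5 past the lower one. In tw18/+, 5 and 1 do.

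Markers of the tissues that such a sample can hold differed between the libraries along with these genes. The epiblast list (10 genes, 5 lower in tw18/tw18 and 0 higher) summed to 1910 FPKM in wild type, 2035 in tw18/+ and 976 in tw18/tw18, and *Pou5f1*, *Nanog* and *Sox2* were present in all 3. The primitive streak list (4 lower of 6 compared) summed to 204, 137 and 76.6 FPKM, and in it *T* and *Mesp1* were listed at 0 in tw18/tw18. The visceral endoderm list (0 of 12 past the threshold, median log2 ratio 0.40) summed to 922, 906 and 1191 FPKM, and the anterior visceral endoderm list (3 higher and 1 lower of 6, median 0.80) to 182, 209 and 276 FPKM. Lists of tissues outside the embryo proper were higher in tw18/tw18. In extra-embryonic ectoderm 7 of 9 genes were higher (median 1.33, sums of 33.7, 31.3 and 77.8 FPKM), and in parietal endoderm 6 of 8 (median 1.04, 414, 515 and 1023 FPKM). In stroma 9 of 10 genes were higher (79.2, 104 and 497 FPKM), and in endothelium 7 of 10 (62.3, 51.0 and 135 FPKM).

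The other lists were less uniform. In the decidua list, 6 of 9 genes were higher and 2 lower in tw18/tw18, with a median of 1.14. The sum was largest in wild type (1823, 331 and 939 FPKM), and most of it there came from the prolactin family gene *Prl8a2*, with 1504 FPKM in wild type, 155 in tw18/+ and 377 in tw18/tw18. Among trophoblast giant cell genes 1 of 3 was higher (median 0.83, sums of 133, 89.4 and 247 FPKM), with *Prl3b1* and *Ctsq* listed at 0 in every library. Among immune genes 2 of 6 were higher (median 0.79, sums of 24.4, 14.0 and 39.5 FPKM, *C1qa* at 0 in wild type and *Prf1* at 0 in tw18/+). Among erythroid genes 3 of 4 were higher and 1 lower (sums of 52.5, 56.3 and 177 FPKM). These counts hold *Hba-a1* (52.2, 27.1 and 0.00700 FPKM) and *Hba-a2* (0.0201, 26.9 and 127 FPKM), near-identical globin copies with opposite ratios whose reads the counting could split, so each is uncertain and no median is given. Of the higher genes, 1 in stroma, 2 in endothelium, 1 in the erythroid and 1 in the immune list passed the filter only through tw18/tw18. No gene of the epiblast, endoderm, extra-embryonic ectoderm, decidua, stroma or endothelium lists was listed at 0. The part of any of these tissues in the results on WNT genes was not tested, and in bulk RNA fewer cells of a type cannot be told apart from less RNA per cell.

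**Figure D2:**
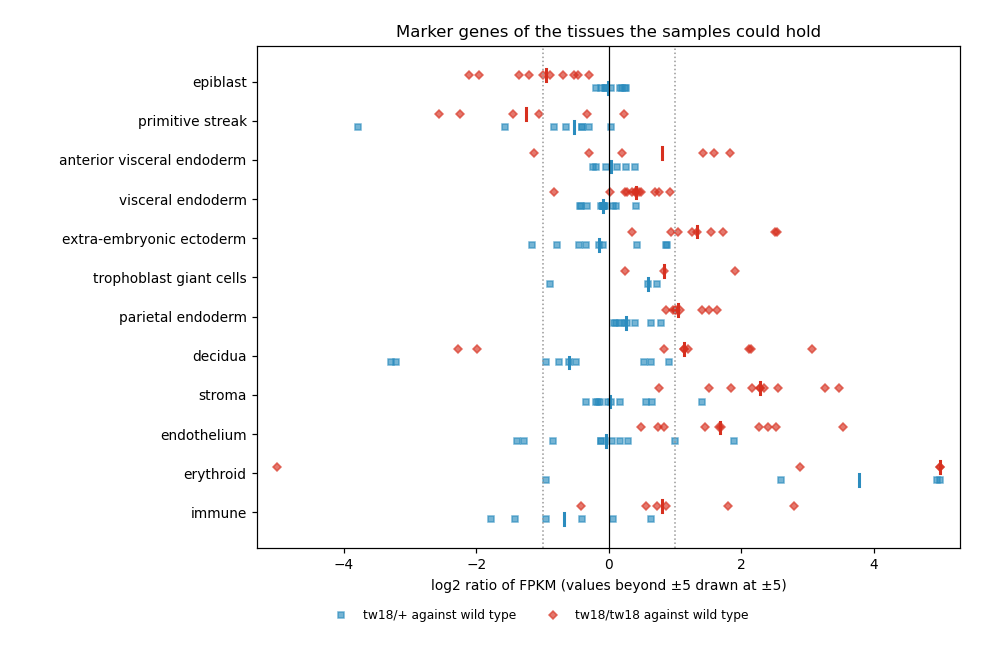
Log2 ratio of FPKM for each marker gene compared, by tissue (rows), in tw18/+ against wild type (squares) and tw18/tw18 against wild type (diamonds). Vertical ticks are the medians, dotted lines mark -1 and 1, and values beyond 5 in either direction are drawn at 5. In tw18/tw18 the epiblast and primitive streak markers lie mostly to the left, with medians of -0.95 and -1.25, and those of stroma and endothelium to the right, with medians of 2.28 and 1.68.

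The ligands were at low levels in all 3 libraries, and the set of ligands read differed between genotypes. Only 6 of the 19 passed the filter, of which 5 were higher and 1 was lower in tw18/tw18. Over all genes compared, 12.0% were higher and 5.60% lower. Among the 5, *Wnt7b* and *Wnt10a* passed only through their tw18/tw18 value. Of the ligands that did not pass, *Wnt2b*, *Wnt8a*, *Wnt9a* and *Wnt9b* were lowest in tw18/tw18, and *Wnt2*, *Wnt8b*, *Wnt10b* and *Wnt11* were highest there. The count of 5 therefore depends on the filter. The ligand called lower was *Wnt3*, which is required for primitive streak formation (Chr 11 from 103774150 to 103817957). It was at 5.16 FPKM in wild type, 3.38 in tw18/+ and 2.54 in tw18/tw18, which is about 218, 200 and 150 fragments. The log2 ratio was -1.02 (counting interval -1.33 to -0.71) in tw18/tw18 and -0.61 (-0.89 to -0.33) in tw18/+ against wild type. *Wnt3* therefore sat at the threshold in tw18/tw18, and it no longer passed it when the libraries were scaled to equal FPKM sums (-0.81) or centred on their median ratio, or with a pseudocount of 0.1 (-0.99 in both). The study describes *Wnt3* as not significantly dysregulated in these samples. By in situ hybridization it reports the wild type pattern for the stage of each embryo, with mutant embryos slightly younger. Whether the sequenced embryos differed in stage is not stated. The neighbour of *Wnt3*, *Wnt9b*, 24328 bp away on the opposite strand, was under the filter, at 0.705 FPKM in wild type, 0.298 in tw18/+ and 0.0577 in tw18/tw18.

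*Wnt4*, a ligand known from kidney and reproductive tract development and from decidualization of the uterine stroma, showed the highest level of any ligand in tw18/tw18. It was at 1.69 FPKM in wild type, 3.32 in tw18/+ and 11.2 in tw18/tw18, a log2 ratio of 2.73 (2.43 to 3.05) in tw18/tw18 against wild type. In tw18/+ the ratio was 0.98 (0.65 to 1.34), just under the threshold. *Wnt5a*, a ligand of the β-catenin-independent branch that governs cell polarity and axis elongation, had 2.20 FPKM in wild type, 1.98 in tw18/+ and 5.83 in tw18/tw18. Here tw18/+ and wild type lay close together (-0.15, interval -0.41 to 0.12), and only tw18/tw18 was higher (1.41, 1.18 to 1.63).

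*Wnt6*, a ligand also present in the decidualizing uterus, and *Wnt10a*, known from skin and teeth, are neighbours on Chr 1 and are read from the same strand. *Wnt6* lies from 74771892 to 74785322, and *Wnt10a* begins 6193 bp further on, from 74791516 to 74804179. *Wnt6* was at 0.490 FPKM in wild type, 1.76 in tw18/+ and 5.55 in tw18/tw18, and *Wnt10a* at 0.517 FPKM in wild type, 1.32 in tw18/+ and 5.08 in tw18/tw18. Both were under 1 FPKM in wild type, intermediate in tw18/+ and highest in tw18/tw18. The log2 ratios against wild type were 1.84 and 3.50 for *Wnt6*, and 1.35 and 3.30 for *Wnt10a*, in tw18/+ and tw18/tw18, respectively. The wild type values rest on few fragments, about 14 for *Wnt6* and 18 for *Wnt10a*, and the intervals of the tw18/tw18 ratios were 2.72 to 4.39 and 2.57 to 4.04. *Wnt7b*, a ligand needed for fusion of chorion and allantois in the placenta, followed the same order at a lower level, with 0.494 FPKM in wild type, 1.12 in tw18/+ and 2.33 in tw18/tw18 and ratios of 1.18 (0.51 to 1.94) in tw18/+ and 2.24 (1.61 to 2.95) in tw18/tw18.

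The other 13 ligands did not pass the filter. *Wnt1*, *Wnt3a*, *Wnt7a* and *Wnt16* were listed at 0 in all 3 libraries. *Wnt2b* (1.78, 1.19 and 0 FPKM) and *Wnt8a*, a ligand of the primitive streak region (1.14, 0.888 and 0 FPKM), were listed at 0 in tw18/tw18 alone. *Wnt2* (0, 0.147 and 0.444 FPKM) was listed at 0 in wild type alone, and *Wnt8b* and *Wnt10b* were listed above 0 in tw18/tw18 alone, at 0.0618 and 0.0234 FPKM. A 0 in this table need not mean that no transcript was present, since genes used by every cell, such as *Actr3* in wild type, are also listed at 0. *Wnt5b*, *Wnt9a* and *Wnt11* had values between 0.0629 and 1.03 FPKM. The FPKM of all ligands summed to 15.2, 17.3 and 34.9 in wild type, tw18/+ and tw18/tw18, and the makeup of that sum differed. *Wnt3* took 34.0%, 19.5% and 7.30% of it, and *Wnt4* 11.1%, 19.2% and 32.1%. *Wnt6* took 3.23%, 10.1% and 15.9%, *Wnt10a* 3.41%, 7.64% and 14.6%, and *Wnt5a* 14.5%, 11.5% and 16.7%.

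**Figure D3:**
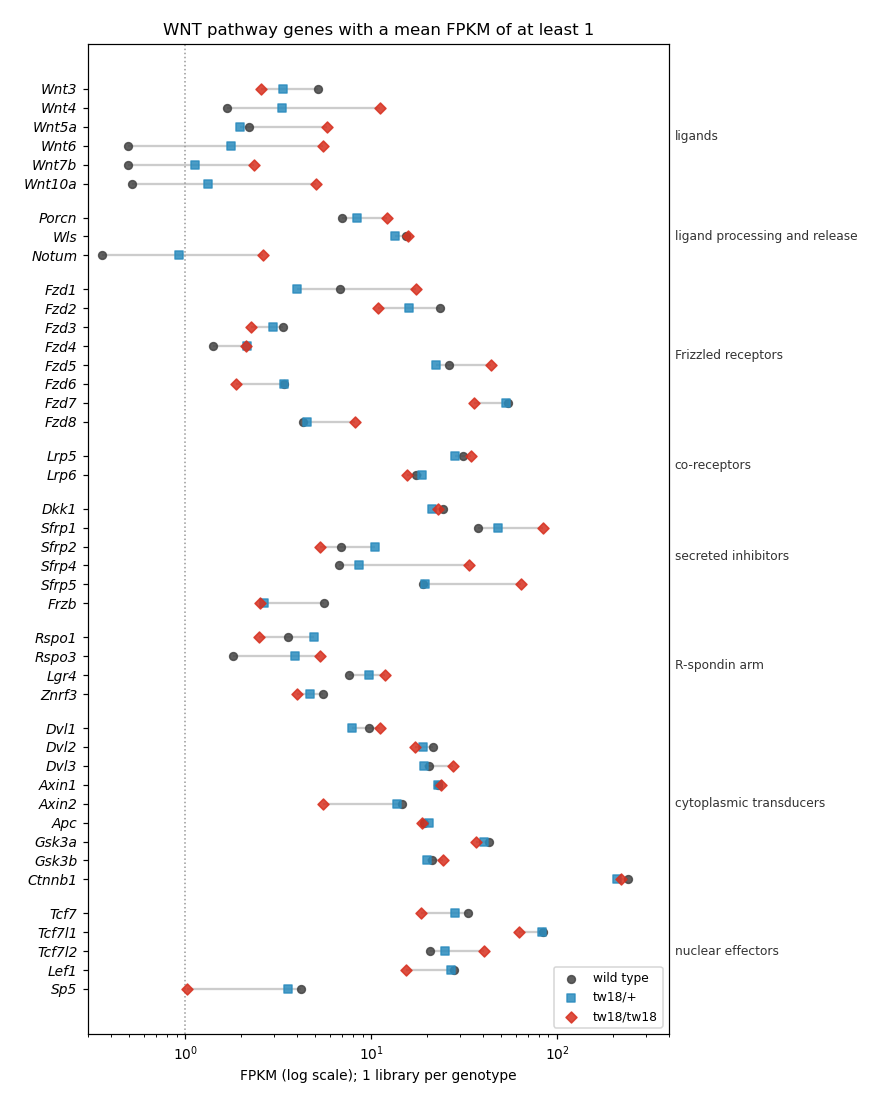
FPKM of each WNT pathway gene that passed the filter in wild type, tw18/+ and tw18/tw18, 1 point per library, grouped by role, on a log axis. The ligands lie between 0.490 and 11.2 FPKM, whereas *Ctnnb1* is at 211 FPKM or more in all 3 libraries.

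The proteins that process and release the ligands include the acyltransferase *Porcn*, the carrier *Wls* and the extracellular deacylase *Notum*, which inactivates ligands. *Wls* lay within a narrow range, at 15.5 FPKM in wild type, 13.4 in tw18/+ and 15.8 in tw18/tw18 (0.028 in tw18/tw18, interval -0.11 to 0.16). *Porcn* had 7.00 FPKM in wild type, 8.43 in tw18/+ and 12.2 in tw18/tw18, a log2 ratio of 0.81 (0.55 to 1.06), which passed the threshold only with equal FPKM sums (1.02). *Notum*, at 0.359 FPKM in wild type, 0.925 in tw18/+ and 2.61 in tw18/tw18, was called higher in both genotypes against wild type (1.37 in tw18/+, 2.86 in tw18/tw18), but its wild type value rests on about 10 fragments and the intervals were wide (0.32 to 2.54 and 1.92 to 3.96).

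The summed level of the Frizzled receptors was alike in wild type and tw18/tw18, while its makeup differed. The 10 genes summed to 124, 111 and 124 FPKM in wild type, tw18/+ and tw18/tw18. In wild type the order was *Fzd7*, *Fzd5*, *Fzd2*, *Fzd1*, and in tw18/tw18 it was *Fzd5*, *Fzd7*, *Fzd1*, *Fzd2*. *Fzd7*, the main Frizzled of pluripotent cells, was at 54.5 FPKM in wild type, 53.1 in tw18/+ and 35.8 in tw18/tw18, and *Fzd5*, which is needed for yolk sac and placental vessels, at 26.2 FPKM in wild type, 22.5 in tw18/+ and 44.3 in tw18/tw18. Neither passed the threshold, with log2 ratios of -0.61 and 0.76 in tw18/tw18. As shares of the Frizzled sum, *Fzd7* was at 44.1%, 47.7% and 28.8% and *Fzd5* at 21.2%, 20.2% and 35.7%.

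The pair past the threshold were *Fzd1* and *Fzd2*, in opposite directions. *Fzd1* was at 6.83 FPKM in wild type, 3.99 in tw18/+ and 17.4 in tw18/tw18, lowest in tw18/+ (-0.77, interval -0.99 to -0.56) and higher in tw18/tw18 (1.35, 1.19 to 1.52). *Fzd2* had 23.4 FPKM in wild type, 16.1 in tw18/+ and 10.9 in tw18/tw18, a stepwise order with ratios of -0.54 (-0.66 to -0.42) and -1.10 (-1.24 to -0.97), and its call was lost with equal FPKM sums (-0.89). Of the remaining receptors, *Fzd8* (4.29, 4.54 and 8.20 FPKM) was next to the threshold, at 0.94 in tw18/tw18 and at 1.15 with equal FPKM sums. *Fzd3* (3.37, 2.98 and 2.27 FPKM), *Fzd4* (1.41, 2.14 and 2.12 FPKM) and *Fzd6* (3.39, 3.40 and 1.88 FPKM) had log2 ratios of -0.57, 0.59 and -0.85. *Fzd9* and *Fzd10* were under the filter. The LRP co-receptors, which are needed for the β-catenin branch, had ratios near 0. *Lrp5* had 31.4 FPKM in wild type, 28.2 in tw18/+ and 34.3 in tw18/tw18, and *Lrp6* had 17.4 FPKM in wild type, 18.8 in tw18/+ and 15.6 in tw18/tw18, with tw18/tw18 ratios of 0.13 (0.052 to 0.21) and -0.16 (-0.24 to -0.075).

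**Figure D4:**
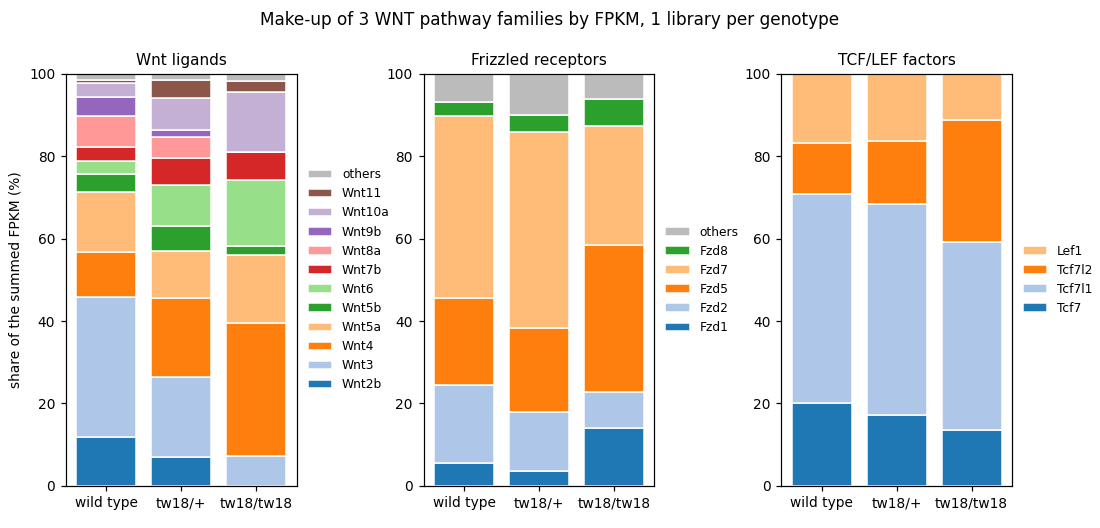
Share of each gene in the summed FPKM of the Wnt ligands, the Frizzled receptors and the TCF/LEF factors, as stacked bars from 0 to 100% for wild type, tw18/+ and tw18/tw18. *Wnt3* is at 34.0% of the ligand sum in wild type and 7.30% in tw18/tw18, *Fzd7* at 44.1% and 28.8% of the Frizzled sum, and *Tcf7l2* at 12.5% and 29.6% of the TCF/LEF sum.

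Of the 6 secreted inhibitors compared, 3 were higher and 1 lower in tw18/tw18, beside 12.0% and 5.60% of all genes compared. The 3 higher ones were among the 4 genes named *Sfrp*, which encode Frizzled-like decoys. *Frzb* was the lower one, and *Dkk1* had a ratio near 0. *Sfrp1* was at 37.5 FPKM in wild type, 48.3 in tw18/+ and 84.5 in tw18/tw18, a ratio of 1.17 (1.10 to 1.24). *Sfrp4*, which is expressed in uterine stroma, had 6.76 FPKM in wild type, 8.64 in tw18/+ and 33.7 in tw18/tw18 (2.32, 2.08 to 2.56), and *Sfrp5*, which is made in anterior endoderm of the early embryo, had 19.1 FPKM in wild type, 19.6 in tw18/+ and 64.4 in tw18/tw18 (1.75, 1.61 to 1.89). For all 3 genes tw18/tw18 stood above both other libraries, which were closer to each other, with tw18/+ ratios of 0.36, 0.36 and 0.033. *Sfrp2* was the exception, at 6.88 FPKM in wild type, 10.4 in tw18/+ and 5.34 in tw18/tw18 (-0.36, -0.65 to -0.068), and was highest in tw18/+. *Frzb*, which is also known as *Sfrp3*, was highest in wild type. It had 5.56 FPKM in wild type, 2.66 in tw18/+ and 2.54 in tw18/tw18, so that both tw18/+ (-1.06, -1.36 to -0.77) and tw18/tw18 (-1.13, -1.44 to -0.84) were called lower than wild type, but neither was with a pseudocount of 1 (-0.84 and -0.89).

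*Dkk1*, the LRP-binding antagonist of the anterior visceral endoderm and itself a WNT target, was at 24.3 FPKM in wild type, 21.2 in tw18/+ and 23.0 in tw18/tw18 (-0.076, -0.21 to 0.057). The 5 SFRP family genes together summed to 75.9, 89.7 and 191 FPKM in wild type, tw18/+ and tw18/tw18, the largest part from *Sfrp1* (49.5%, 53.9% and 44.4%), and *Dkk1* made up 23.9%, 19.0% and 10.6% of all inhibitor FPKM. *Dkk2*, *Dkk3* and *Wif1* were under the filter. The marker sums of the tw18/tw18 library differed from wild type in both directions. Those of stroma, endothelium, extra-embryonic ectoderm, parietal endoderm, trophoblast giant cells, erythroid and immune genes and both visceral endoderm lists were higher. Those of epiblast and primitive streak were lower. The decidua sum was also lower, with *Prl8a2* at 1504 FPKM in wild type and 377 in tw18/tw18, although 6 of 9 decidua genes were higher. In tw18/+, the sums of stroma, parietal endoderm, epiblast, erythroid genes and anterior visceral endoderm were above wild type. Those of decidua, immune genes, endothelium, trophoblast giant cells, primitive streak, extra-embryonic ectoderm and visceral endoderm were below it. The part of any of these tissues in the SFRP and ligand values was not tested.

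In the R-spondin arm, R-spondins bind LGR receptors and thereby remove the ubiquitin ligases ZNRF3 and RNF43, which otherwise clear Frizzled receptors from the membrane. *Rspo3*, the member expressed in placenta and endothelium, had 1.81 FPKM in wild type, 3.92 in tw18/+ and 5.33 in tw18/tw18 and was called higher in tw18/+ (1.11, 0.73 to 1.50, but 0.81 with a pseudocount of 1) and in tw18/tw18 (1.56, 1.19 to 1.93). The receptor *Lgr4* followed the same order below the threshold, at 7.61 FPKM in wild type, 9.80 in tw18/+ and 11.9 in tw18/tw18 (0.65 in tw18/tw18). *Rspo1* (3.59, 4.92 and 2.50 FPKM) was lowest in tw18/tw18 (-0.52, -0.97 to -0.087), and *Znrf3*, also a WNT target, had 5.50 FPKM in wild type, 4.69 in tw18/+ and 4.01 in tw18/tw18 (-0.46, -0.64 to -0.27). *Rspo2* was listed at 0 throughout. *Lgr5* (0.261, 0.297 and 0.188 FPKM) and *Rnf43* (0.118, 0.241 and 0.593 FPKM) were under the filter, and neither reached 1 FPKM in any library.

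Of the 9 cytoplasmic transducers, 1 was called, beside 17.6% of all genes compared in either direction. With so few genes this does not set the group apart. *Ctnnb1*, which encodes β-catenin, was the most abundant member, at 241 FPKM in wild type, 211 in tw18/+ and 221 in tw18/tw18 (-0.12, -0.16 to -0.086). The destruction complex genes *Axin1* (23.0, 23.0 and 23.9 FPKM), *Apc* (19.2, 20.5 and 18.7 FPKM), *Gsk3a* (43.0, 40.4 and 36.9 FPKM) and *Gsk3b* (21.4, 20.0 and 24.4 FPKM) had tw18/tw18 ratios between -0.22 and 0.19. Some members overlap a gene on the opposite strand, and since the strand setting of the counting is not given, their values are uncertain. These include *Gsk3a*, with an antisense gene at 10.5 to 12.6 FPKM, *Dvl2*, with *Acadvl* at 5.92 to 8.46 FPKM, and the ligand *Wnt5b*, whose own level is far below that of *Fbxl14* at 10.7 to 17.8 FPKM. The Dishevelled genes, which relay the signal from the receptors, spread somewhat more, with ratios of 0.20 for *Dvl1* (9.73, 7.93 and 11.2 FPKM), -0.33 for *Dvl2* (21.6, 19.1 and 17.2 FPKM) and 0.43 for *Dvl3* (20.5, 19.3 and 27.7 FPKM). The gene called was *Axin2*, the inducible AXIN of the same complex and a general read-out of β-catenin activity (Chr 11 from 108920349 to 108950783). It was at 14.7 FPKM in wild type, 13.8 in tw18/+ and 5.50 in tw18/tw18, so that the tw18/+ ratio (-0.083, -0.21 to 0.047) lay near 0 while tw18/tw18 was lower (-1.41, -1.58 to -1.25).

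Of the nuclear effectors, *Sp5* was past the threshold and the 4 TCF/LEF factors were not. *Tcf7* was at 33.4 FPKM in wild type, 28.2 in tw18/+ and 18.5 in tw18/tw18 (-0.85, -0.98 to -0.73), and *Lef1* at 27.8 FPKM in wild type, 26.8 in tw18/+ and 15.5 in tw18/tw18 (-0.84, -0.96 to -0.72). Both are the family members usually counted as activators, and for both wild type and tw18/+ lay above tw18/tw18. *Tcf7l1*, the family's main repressor in pluripotent cells, had 84.3 FPKM in wild type, 83.5 in tw18/+ and 62.7 in tw18/tw18 (-0.43, -0.49 to -0.36) and remained the most abundant of the 4 in each library. *Tcf7l2* alone had its highest value in tw18/tw18, with 20.8 FPKM in wild type, 25.0 in tw18/+ and 40.7 in tw18/tw18 (0.96, 0.86 to 1.07), and passed the threshold with equal FPKM sums (1.18). Its share of the TCF/LEF sum was 12.5%, 15.3% and 29.6% in wild type, tw18/+ and tw18/tw18. *Sp5*, a zinc finger factor and direct target of β-catenin (Chr 2 from 70474923 to 70477729), had 4.21 FPKM in wild type, 3.59 in tw18/+ and 1.02 in tw18/tw18, or about 122, 145 and 41 fragments, and a ratio of -2.05 (-2.60 to -1.53) in tw18/tw18 and -0.23 (-0.59 to 0.12) in tw18/+. *Axin2* and *Sp5* are named by the study itself from these samples, so their direction is no independent evidence.

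**Figure D5:**
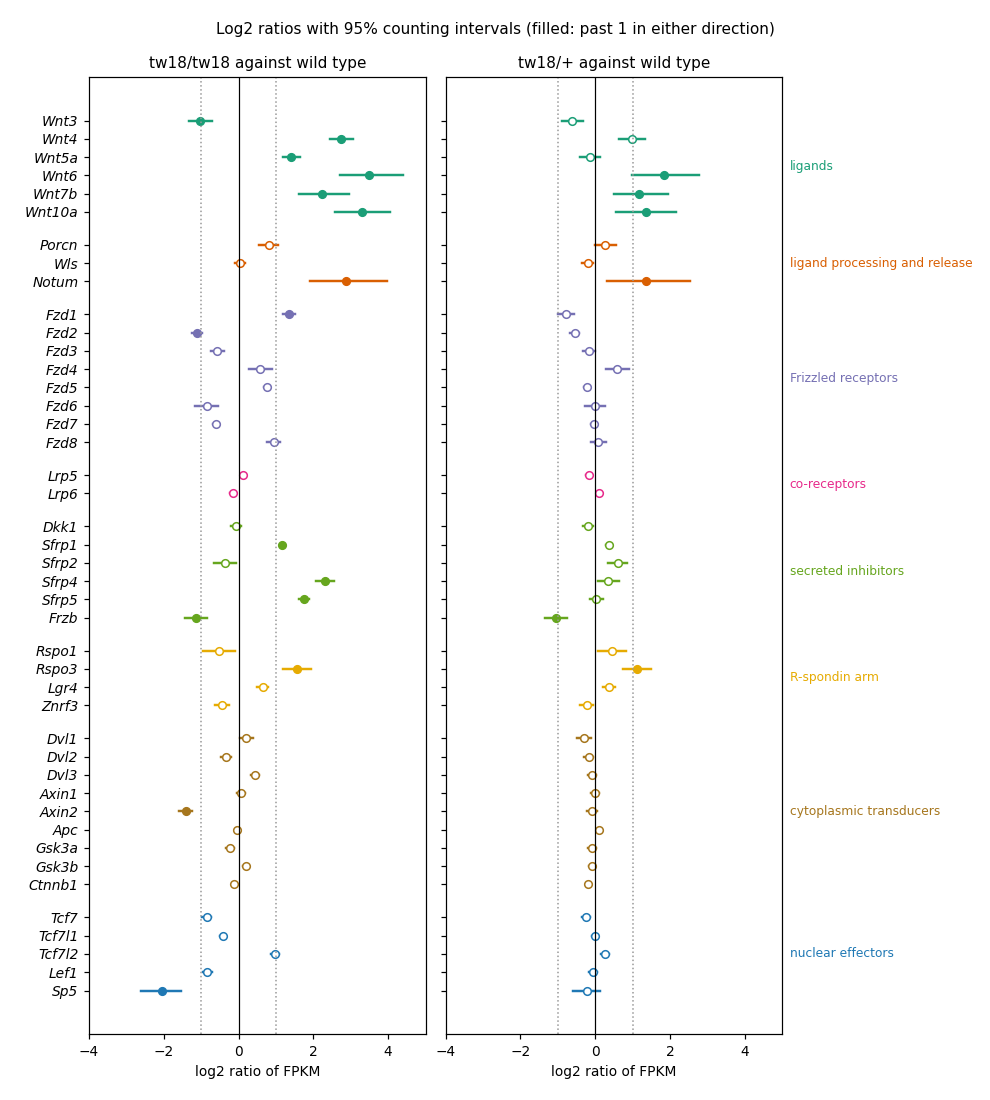
Log2 ratio of FPKM for each of the 43 genes that passed the filter, in tw18/+ against wild type and tw18/tw18 against wild type, with 95% counting intervals as bars and genes grouped by role. Dotted lines mark -1 and 1. The tw18/tw18 ratios run from -2.05 for *Sp5* to 3.50 for *Wnt6*, and 5 of the 6 ligands lie past the upper line. Of these ligands, *Wnt7b* and *Wnt10a* passed the filter only through their tw18/tw18 value.

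The 250 bases before the start of 4 called members are shown, from RefSeq on GRCm38.p6 and written 5′ to 3′ on the gene's strand. *Sp5* and *Axin2* are WNT targets called lower, *Wnt6* is a ligand called higher and *Sfrp5* an inhibitor called higher. Not every member described above as a WNT target was called lower, since *Dkk1* (-0.076) and *Znrf3* (-0.46) were not called. Capitals mark the core of the TCF/LEF motif, searched as CTTTGAT or CTTTGAA and on the opposite strand as ATCAAAG or TTCAAAG.
Sp5 (chr2:70474673-70474922, plus strand): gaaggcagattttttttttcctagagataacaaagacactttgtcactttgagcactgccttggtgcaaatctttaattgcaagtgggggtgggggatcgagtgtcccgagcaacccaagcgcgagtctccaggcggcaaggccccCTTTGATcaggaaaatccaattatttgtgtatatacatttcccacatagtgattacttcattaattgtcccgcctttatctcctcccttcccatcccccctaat
Axin2 (chr11:108920099-108920348, plus strand): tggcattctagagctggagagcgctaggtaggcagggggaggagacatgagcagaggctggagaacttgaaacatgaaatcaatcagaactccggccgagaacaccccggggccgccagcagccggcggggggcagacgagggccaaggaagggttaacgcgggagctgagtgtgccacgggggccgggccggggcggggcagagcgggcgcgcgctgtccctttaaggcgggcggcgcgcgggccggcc
Wnt6 (chr1:74771642-74771891, plus strand): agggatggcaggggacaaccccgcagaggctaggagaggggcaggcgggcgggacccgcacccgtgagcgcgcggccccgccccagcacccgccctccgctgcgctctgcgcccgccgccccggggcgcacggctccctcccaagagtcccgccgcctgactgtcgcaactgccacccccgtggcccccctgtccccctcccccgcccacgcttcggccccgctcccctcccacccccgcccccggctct
Sfrp5 (chr19:42202253-42202502, minus strand): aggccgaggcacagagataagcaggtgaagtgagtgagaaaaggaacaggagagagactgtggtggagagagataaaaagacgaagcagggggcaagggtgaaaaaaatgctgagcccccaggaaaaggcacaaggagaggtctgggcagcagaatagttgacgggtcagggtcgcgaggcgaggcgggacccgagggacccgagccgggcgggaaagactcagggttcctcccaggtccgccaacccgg
Only the *Sp5* window holds the letters, 104 bases before the start. Such a window was found for 43 of the 64 genes, and 5 of these 43 held a match (*Sp5*, *Dkk1*, *Gsk3a*, *Wnt5b* and *Wnt11*). Counted over windows, it was 9.43% of the 53 windows of these genes, beside 7.48% of all 32851 windows. A match in letters is not a measured binding site, and its absence from these bases says nothing of binding elsewhere.

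Further pathway genes outside the 64 were taken as lists. Their counts are to be read beside the 12.0% of all genes that were higher and the 5.60% that were lower in tw18/tw18 against wild type. Of 15 WNT target genes, 8 could be compared, and 4 were lower and 1 higher (median -1.02). The lower ones were *Ccnd1*, a cyclin of the G1 phase (54.7, 46.8 and 19.6 FPKM, ratio -1.48), *Fgf8*, a streak signal (-1.45), the receptor gene *Tnfrsf19* (4.63, 3.86 and 1.24 FPKM, -1.90) and *Sp8*, a relative of *Sp5* (1.75, 0.996 and 0.303 FPKM, -2.53), which passed the filter only through its wild type value and so could only come out lower. In tw18/+ against wild type, 10 could be compared and 2 (20%) were lower, *T* and *Mesp1*, beside 3.71% of all genes. Both were listed at 0 in tw18/tw18, and *Mesp1* (7.26, 0.530 and 0 FPKM) passed the filter only through its wild type value. The higher one in tw18/tw18 was the T-box gene *Tbx3* (6.51, 5.05 and 13.5 FPKM, 1.05). Some genes of this list are named by the study from these samples, so its direction is no independent evidence. In the list of other secreted and membrane regulators, 2 of 9 were higher (22.2%), the glypican *Gpc4* (1.07) and *Shisa2* (1.24), and 1 was lower, *Tspan12* (-1.38), a Frizzled-associated tetraspanin, with a median of 0.33. Other cytoplasmic regulators had 1 of 15 higher, the Dishevelled-binding *Dact3* (0.563, 1.30 and 2.45 FPKM, 2.12), and 0 lower, with a median of -0.07. *Dact3* passed the filter only through its tw18/tw18 value and so could only come out higher. Nuclear cofactors had 0 of 19 called in either direction, with ratios between -0.70 and 0.55 and a median of -0.09.

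The planar cell polarity branch, in which Frizzled and Dishevelled orient cells without β-catenin, was represented by 19 genes. In tw18/tw18, 2 were higher (10.5%, a share near the background) and 3 lower (15.8%), with a median of -0.15. *Vangl2*, a core membrane protein of this branch, had 24.1 FPKM in wild type, 22.1 in tw18/+ and 8.75 in tw18/tw18 (-1.46), and the core cadherin *Celsr3* (1.52, 1.70 and 0.754 FPKM, -1.01) and the Diversin gene *Ankrd6* (5.62, 3.77 and 2.34 FPKM, -1.26) were also lower. The formin *Daam2* (1.75, 1.41 and 7.84 FPKM, 2.16) and *Fuz* (2.69, 4.06 and 5.74 FPKM, 1.10) were higher. In tw18/+ against wild type, 0 of the 19 passed the threshold.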

How the data were processed

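Mouse embryo RNA at E6.5 was sequenced in 1 library per genotype, prepared with the TotalScript kit. Per the submitters' processing notes, the authors used TopHat2, Bowtie 1.0.0, Cufflinks 2.2.1 and Cuffdiff on mm10, and the deposited values are the FPKM of 23421 genes in 3 columns. The annotation, the library normalization and the strand setting of the counting are not given in the sources used here. FPKM are relative values, so an abundant gene can lower the others of its library, to an extent that depends on this normalization.

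Log2 ratios of FPKM were computed without a pseudocount (Python 3.11.15, scipy 1.17.1, pandas 2.3.3, numpy 2.4.6), and matplotlib 3.10.9 drew the plots. Genes were filtered at a mean of at least 1 FPKM and called at a log2 ratio of at least 1. Groups came from the sample labels. Every member was to be named, with values if it passed the filter, and genes of the other lists only if called in tw18/tw18 against wild type. Genes given as listed at 0, *Prl8a2*, the overlapping genes, *Pou5f1*, *Nanog* and *Sox2* as references, and genes in the closing observations were added after their values were seen. The members and lists were chosen with earlier results of these data known. The level of 1 erythroid marker is not reported here.

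Depth was estimated from the spacing of low values in single-transcript genes, of which 85.8% to 87.6% came out whole within 0.2 fragments. Relative to wild type, the depth was 1.40 times as high in tw18/+ and 1.39 times in tw18/tw18. Fragments per gene used the longest GENCODE M21 transcript that matched RefSeq and are approximate. Intervals are exact (Clopper-Pearson) at 95%, and PCR copies are not independent molecules. Calls, depth and intervals were tested on simulated data. Positions are from GENCODE M21 (GRCm38). Alternatives were pseudocounts of 0.1 and 1, other filters, a log2 threshold of 2, median centring, equal FPKM sums and keeping genes listed at 0.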

Additional observations from a re-analysis of the deposited data

How the results depend on the processing

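No paired analysis was possible because each genotype has 1 library, and for the same reason no library could be left out. Of the alternatives run on the WNT genes, no log2 ratio of a single gene changed its sign past the threshold, but none could have. A pseudocount cannot reverse a ratio, filters and thresholds leave it unchanged, and the scalings shifted it by 0.25 at most. The number higher in tw18/tw18 against wild type was 11 of 43, and became 17 of 54 without a filter on low values (16.0% of all genes) and 6 of 43 at a log2 threshold of 2 (3.06%). The number lower was 5, and became 3 with a pseudocount of 1 (3.45% of all genes) or with genes listed at 0 kept (3.61%), 2 with equal FPKM sums (3.59%) and 1 at a log2 threshold of 2 (1.09%). The median ratio of 0.05 became 0.16 without a filter or with a mean of at least 0.5 FPKM, and 0.26 with equal FPKM sums, a scaling that itself adds 0.21 to every ratio. With a mean of at least 2 FPKM it was -0.0032. Under that scaling *Wnt3*, *Fzd2* and *Frzb* were no longer called lower, and *Porcn*, *Fzd8* and *Tcf7l2* were called higher. In tw18/+ against wild type the 5 higher genes became 0 with a pseudocount of 1, with genes listed at 0 kept or at a log2 threshold of 2, became 3 with a mean of at least 2 FPKM, and became 10 of 56 without a filter (6.94% of all genes). The 1 lower gene became 0 with a pseudocount of 1, with genes listed at 0 kept or at a log2 threshold of 2, became 2 of 50 with a mean of at least 0.5 FPKM, and became 4 of 56 without a filter (7.88%). Against tw18/+, the 9 higher genes in tw18/tw18 became 1 at a log2 threshold of 2 (2.73% of all genes). The 2 lower ones became 4 of 55 without a filter (7.34%) and 0 at a log2 threshold of 2, and the median of 0.12 became 0.36 with equal FPKM sums. Of the log2 ratios of single genes under these alternatives, 438 held and 78 moved, and of the counts for the other lists 293 held and 47 moved. Differences between embryos of a genotype could not be measured at any depth.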

Other observations

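Several WNT genes under the filter on low values are given here as values, without a ratio or a call. *Fzd10*, a Frizzled of the primitive streak, had 0.145 FPKM in wild type, 1.58 in tw18/+ and 1.03 in tw18/tw18, or about 7, 99 and 64 fragments. *Fzd9* had 0.0686 FPKM in wild type, 0.934 in tw18/+ and 0.346 in tw18/tw18, about 2, 41 and 15 fragments, and *Wnt11*, a ligand of the β-catenin-independent branch, had 0.104 FPKM in wild type, 0.763 in tw18/+ and 0.917 in tw18/tw18, about 5, 51 and 61 fragments. In these 3 genes both libraries with the tw18 haplotype stood above wild type, whereas *Dkk3* was lowest in tw18/+ (0.992, 0.108 and 0.963 FPKM in wild type, tw18/+ and tw18/tw18, about 46, 7 and 62 fragments).

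*Ndp*, which encodes the Frizzled-4 ligand Norrin, was listed at 0 in wild type, with 0.323 FPKM in tw18/+ and 2.35 in tw18/tw18, and the corepressor gene *Tle2* was listed at 0 in wild type, with 0.164 and 1.30 FPKM. *Dixdc1*, a positive regulator of the pathway, was lowest in tw18/+, at 2.84 FPKM in wild type, 0.925 in tw18/+ and 3.13 in tw18/tw18, while wild type and tw18/tw18 lay close together.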
